A study of Mus musculus with 2 samples.

Results

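The genes described here are those of the NRF2 response and of glutathione metabolism, in dorsal skin of newborn mice with and without Sdr9c7. They were taken by name: all glutathione S-transferases of the alpha, mu, pi, theta and omega classes (Gsta, Gstm, Gstp, Gstt and Gsto), all glutathione peroxidases (Gpx), and 17 further genes that are regulators, targets or suppliers of the same system. The array carried 43 such gene names of 31093 in all, on 57 probes, and 56 of those probes had an accession with the same symbol in RefSeq (GRCm38.p6). On both arrays, 40 of the 43 names had a probe well above background, and these are called measured. The other members, Gpx5, Gpx6 and Gstt4, had 1 probe each, which was not well above background on either array.

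Both groups were C57BL/6J mice on postnatal day 0. The controls were Sdr9c7+/+ and the others Sdr9c7-/-. The labels do not say how the allele was made. The design text speaks of epidermis where the sample labels say skin. Each group was 1 array with equal amounts of RNA from 5 pooled animals, so a difference between the groups has no replicate check and no p-value is given. Intensities were taken to log2 and set relative to the 75th percentile of each array, so that a signal of 1 equals that percentile, and a log2 difference is knockout minus wild type.

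NRF2, encoded by Nfe2l2, is a transcription factor that is kept scarce by KEAP1, an adaptor that hands it to a ubiquitin ligase. When electrophiles or oxidants modify KEAP1, NRF2 accumulates, pairs with a small MAF protein and binds antioxidant response elements in front of genes that make, use and recycle glutathione. In epidermis the system is known for protecting keratinocytes from ultraviolet light and reactive chemicals, and NRF2 activity in keratinocytes also affects genes of the cornified envelope. Sdr9c7 encodes a dehydrogenase of barrier lipids.

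A few sequences show what the values rest on. The probes below belong to the 3 members that differed at least 1.5-fold, and the first 30 bases of each 60-base probe are given, all in lower case. Hmox1 had 2 probes at separate places in the gene.
Nfe2l2: ctcaagttaatttcttaggcaccatttggg
Hmox1, probe 1: atggttgtaagcatccatgttgactgacca
Hmox1, probe 2: atagagcgcaacaagcagaacccagtctat
Gpx3: ttttttcagctttctgttccaaatgagccc
On mm9, the build of the array design, the whole probes lie at chr2:75513771-75513830 on the minus strand for Nfe2l2, at chr8:77624207-77624266 and chr8:77620797-77620856 on the plus strand for Hmox1, and at chr11:54723436-54723495 on the plus strand for Gpx3. An annotation of that build was not used here, so the exon or untranslated region under each probe is not given.

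The second set shows where probes of related members resemble each other. Probes were compared with probes, so how well each tells its paralogs' transcripts apart was not tested. Of 1596 pairs of member probes, 4 were at least 65% identical over at least 30 aligned bases. The closest pair was 1 probe of Gstp1 and 1 of Gstp2, with 30 of 35 aligned bases identical. The first 30 aligned bases are given, with the 5 that differ in capitals.
Gstp1: cgcggcaaatatgTcaccCtCatctacaCC
Gstp2: cgcggcaaatatgGcaccAtGatctacaGA
A probe of Gstm6 and a probe of Gstm7 also aligned, with 41 of 55 aligned bases identical. Here 10 of the first 30 differ.
Gstm7: aTcagCtTatggacaACcgCatGGTgCtgg
Gstm6: aAcagGtCatggacaCTcgAatTCAgAtgg

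Most members differed little between the arrays. None of the 40 measured members was 2-fold apart, against 1.88% of 22740 measured gene names (0.528% higher and 1.35% lower). At least 1.5-fold apart were 3 members, or 7.5%, against 8.42% of all measured names, which is close to the background. These were Nfe2l2, higher in the knockout, and Hmox1 and Gpx3, both lower. Of all measured names, 2.36% were at least 1.5-fold higher and 6.06% at least 1.5-fold lower.

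Dim genes scatter more than bright ones, so the background was also counted by mean signal. Among names with a mean signal of at least 1, 3.36% were at least 1.5-fold apart (0.806% higher and 2.56% lower), and so was 1 of 21 members. Between 0.1 and 1 it was 6.82% (1.67% higher and 5.15% lower), and 2 of 14 members. Under 0.1 it was 14.8% (4.52% higher and 10.3% lower), and 0 of 5 members.

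The median log2 difference was −0.03 over the measured members and −0.04 over all measured names. Above 0 were 19 members and below 0 were 21. Within 0.3 of 0 lay 77.5% of the members and 73.6% of all names. The SD of the differences was 0.28 among members and 0.35 among all names. The members as a group thus had no common shift. Their spread has to be read by signal, since members were brighter than most names. From the brightest to the dimmest class, the SD was 0.24, 0.28 and 0.29 among members. Among all names it was 0.25, 0.34 and 0.43. In the brightest class 81% of members and 86.9% of names lay within 0.3 of 0.

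**Figure D1:**
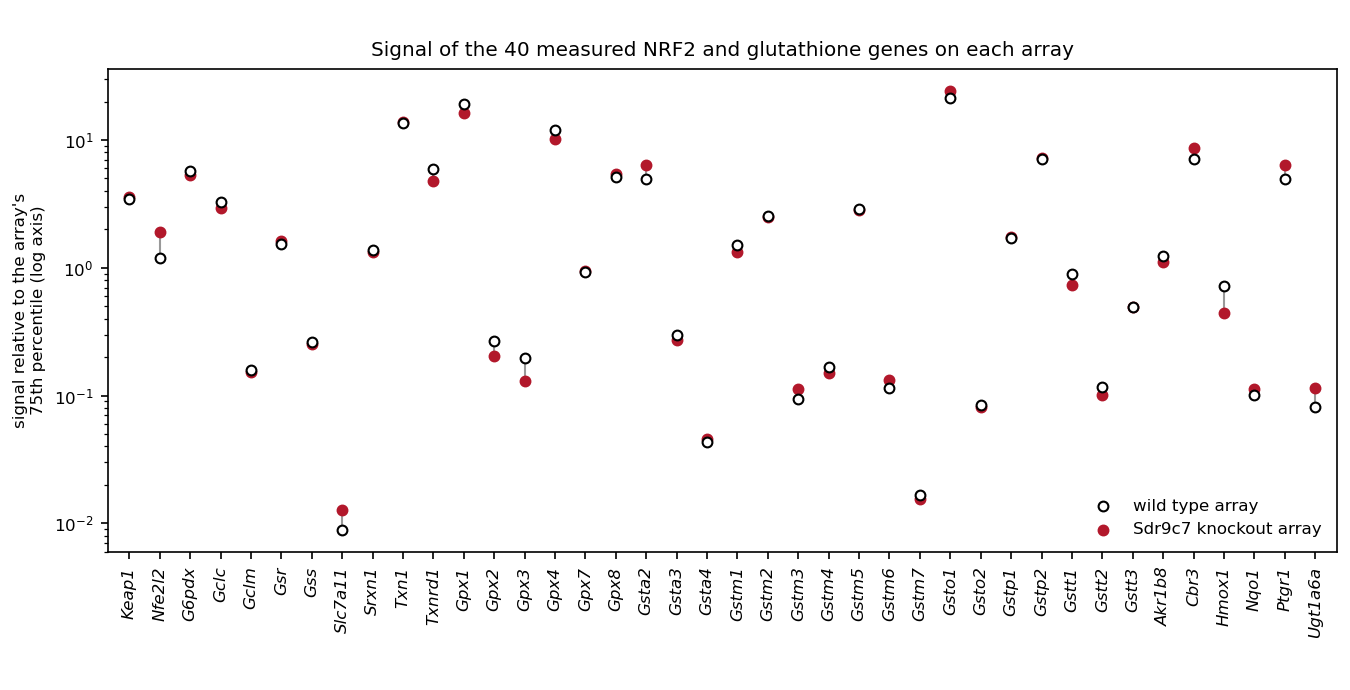
Signal of the 40 measured members on each array, relative to that array's 75th percentile, on a log axis; open circles are the wild type array and filled circles the knockout array, 1 array each. Pairs of circles overlap for most genes, and the widest gaps are those of Hmox1, Nfe2l2 and Gpx3; heights of different genes are not comparable, since each probe has its own brightness.

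**Figure D2:**
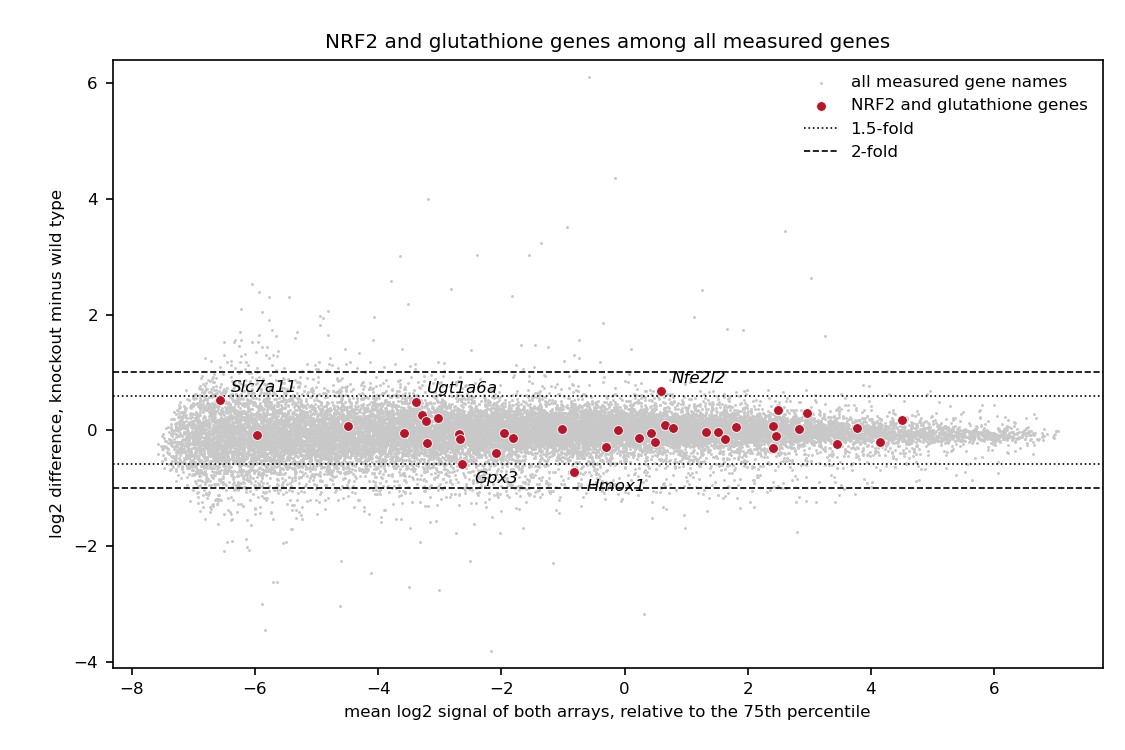
Log2 difference of each measured gene name against its mean log2 signal, with members in red, other names in grey, and dotted and dashed lines at 1.5-fold and 2-fold. The members lie inside the cloud, with Nfe2l2 above and Hmox1 and Gpx3 below the dotted lines, and Slc7a11 at the dim end where the cloud is widest.

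The error of a single-spot difference, by the scanner software's error model, was 0.20 on the log2 scale for a typical detected spot. Members with a replicated probe showed the spread between spots directly. Akr1b8, an aldo-keto reductase that clears reactive aldehydes, was printed at 10 positions, of which 9 were used. Its log2 difference lay between −0.17 and −0.08 at these positions (mean −0.13, SD 0.03). Gsta4, the transferase that conjugates the lipid aldehyde hydroxynonenal, also had 9 usable spots, and its difference lay between −0.18 and 0.20 (mean 0.07, SD 0.12). A probe of Gstm7 was also printed at 10 positions, with 6 used, and its difference lay between −0.24 and 0.20 (mean −0.06, SD 0.16). The Gsta4 and Gstm7 spots thus fell on both sides of 0, while each Akr1b8 spot was slightly lower in the knockout. Over 335 probes with at least 5 usable detected spots, the median SD between spots was 0.06. These errors cover spots and probes only, not animals, litters or dissections.

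Among the regulators, Nfe2l2 itself had the highest difference of all 40 members. Its signal was 1.19 in controls and 1.90 in knockout skin, 1.60-fold higher (log2 difference 0.67, scanner error 0.20). Of all measured names 6.01% were further from 0 in either direction. Nfe2l2 falls in the brightest of the 3 signal classes, where a difference of this size was least common. The value rests on 1 probe and 1 spot. Within 8 rows and columns of it, 1.58% of detected spots were 2-fold apart, against a median of 1.63% for all detected spots. The median log2 difference of those surrounding spots was 0.05. The SD of the spot's pixels was 0.189 of its mean signal on the wild type array and 0.208 on the knockout array. These were the highest such shares among member probes with a signal of at least 1. The Nfe2l2 difference stayed between 0.62 and 0.72 under the 8 alternative settings tried.

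Keap1, which holds NRF2 in check, read 3.44 for wild type and 3.57 for knockout (0.05, error 0.20). The Nfe2l2 difference was thus larger than the scanner error and the Keap1 difference smaller. Other genes of NRF2 control belong to a wider list given further on, and are named here for their role. Cul3, the ligase scaffold used by KEAP1, was at −0.07, and Bach1, a repressor that competes for the same elements, at 0.07. The small MAF partners were all above 0, at 0.28 for Maff, 0.28 for Mafg and 0.34 for Mafk, none of them 1.5-fold apart. Also on that list were Nfe2l1 at −0.29, Sqstm1 at −0.20 and Nfe2l3 at 0.08. For scale, 73.6% of all measured names lay within 0.3 of 0. The array does not measure NRF2 protein, which is controlled mainly by its breakdown.

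Glutathione supply and recycling was even between the arrays in 5 of 6 members. Gclc, the catalytic subunit of the enzyme that makes the first and rate-limiting bond, went from 3.28 to 2.94 (−0.16). Its modifier subunit Gclm was at −0.07, and Gss, which adds glycine to complete the tripeptide, at −0.05. G6pdx, which supplies NADPH through the pentose phosphate pathway, was at −0.10. Gsr, the reductase that regenerates glutathione with that NADPH, had 2 probes, at 0.12 and 0.05. Each of these differences was smaller than the 0.20 error of a spot.

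Slc7a11, the cystine importer that feeds glutathione synthesis, was the exception in this group. It read 0.00887 on the wild type array and 0.0127 on that of the knockout, 1.43-fold higher (0.52, error 0.29). Both values were near the lowest signals taken as well above background, 0.00563 and 0.00435. Under the alternatives the difference ran from 0.06 after normexp background correction to 0.59 with quantile or loess normalization, and it passed 1.5-fold under the latter pair. It falls in the dimmest signal class, where 1.5-fold differences were most common.

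In the thioredoxin system, the parallel thiol pathway, Txn1 (thioredoxin) read 13.5 and 13.9 (0.04). Srxn1, sulfiredoxin, which repairs over-oxidised peroxiredoxins, read 1.37 and 1.32 (−0.05). Txnrd1, the selenoenzyme that reduces thioredoxin, was lower in the knockout, from 5.90 to 4.78 (1.24-fold, −0.30, error 0.20). It was the fourth lowest of the members, stayed between −0.30 and −0.26 under the alternatives, and was under 1.5-fold in each of them.

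Of the glutathione peroxidases, 6 of 8 were measured. The 4 lowest differences were those of Gpx3 (−0.59), Gpx2 (−0.39), Gpx4 (−0.24) and Gpx1 (−0.21), and these kept a value below 0 under all 8 alternatives. They are the selenium-containing peroxidases of the family that were measured, a split that was not planned. Of all measured names, 8.34% were further from 0 than Gpx3, 18.2% than Gpx2, 35.1% than Gpx4 and 40.7% than Gpx1. Gpx7 and Gpx8, peroxidases of the endoplasmic reticulum that carry no selenium, were at 0.01 and 0.08. The median of the 6 was −0.22, against −0.04 for all measured names.

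Gpx3, the secreted peroxidase found in plasma, read 0.196 in controls and 0.130 in knockout skin, 1.5-fold lower (−0.59, error 0.20). It sat on the 1.5-fold threshold itself: it passed in the main setting and fell just short in each alternative that could change its value, which reached −0.53. With damaged surroundings left out, and with the series matrix, it was at −0.58. Both of these kept its spot and changed only the scaling of the arrays. Dropping the filter on dim probes and taking the brightest probe could not change it, since Gpx3 had 1 probe, well above background. Gpx3 falls in the middle signal class. Gpx2, known from gut and other epithelia and a direct NRF2 target, went from 0.269 to 0.205. Gpx4, which reduces lipid hydroperoxides within membranes and restrains ferroptosis, went from 11.9 to 10.1, and the cytosolic Gpx1 from 19 to 16.4. The Gpx1 and Gpx4 differences were about the size of the scanner error.

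Heme oxygenase 1 (Hmox1), which breaks down heme and is induced by NRF2 and repressed by BACH1, had the lowest difference of all members. The first probe read 2.85 for wild type and 1.79 for knockout (−0.67), and the second 0.185 and 0.109 (−0.76). Both probes were therefore lower, and their difference from each other was below the pooled SD of 0.23 between probes of a gene. The mean was −0.72 (1.65-fold lower, error 0.14), and it stayed between −0.72 and −0.67 under the alternatives. Of all names 5.14% were further from 0. The first probe lay where 7.52% of the surrounding spots were 2-fold apart, above the 95th percentile of 4.65% for detected spots, and the second lay where 0.971% were.

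Of the other 5 enzymes of this group, 4 were above 0 and 1 below, none of them 1.5-fold apart. Ptgr1, prostaglandin reductase 1, which reduces reactive lipid aldehydes and ketones, read 4.98 and 6.37 (0.35), and Cbr3, a carbonyl reductase, 7.04 and 8.61 (0.29). Nqo1, the quinone reductase often used as a readout of NRF2, read 0.101 and 0.113 (0.16, error 0.21). Its difference was within the error. Akr1b8 was at −0.13.

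Ugt1a6a, a glucuronosyltransferase, read 0.0807 on the wild type array and 0.114 on that of the knockout (1.41-fold higher, 0.49, error 0.21). Its probe carried the accessions of Ugt1a1, Ugt1a10 and Ugt1a7c as well, which share their last exons with Ugt1a6a, so the value belongs to this group of transcripts and not to 1 gene. After normexp correction it was 0.28.

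**Figure D3:**
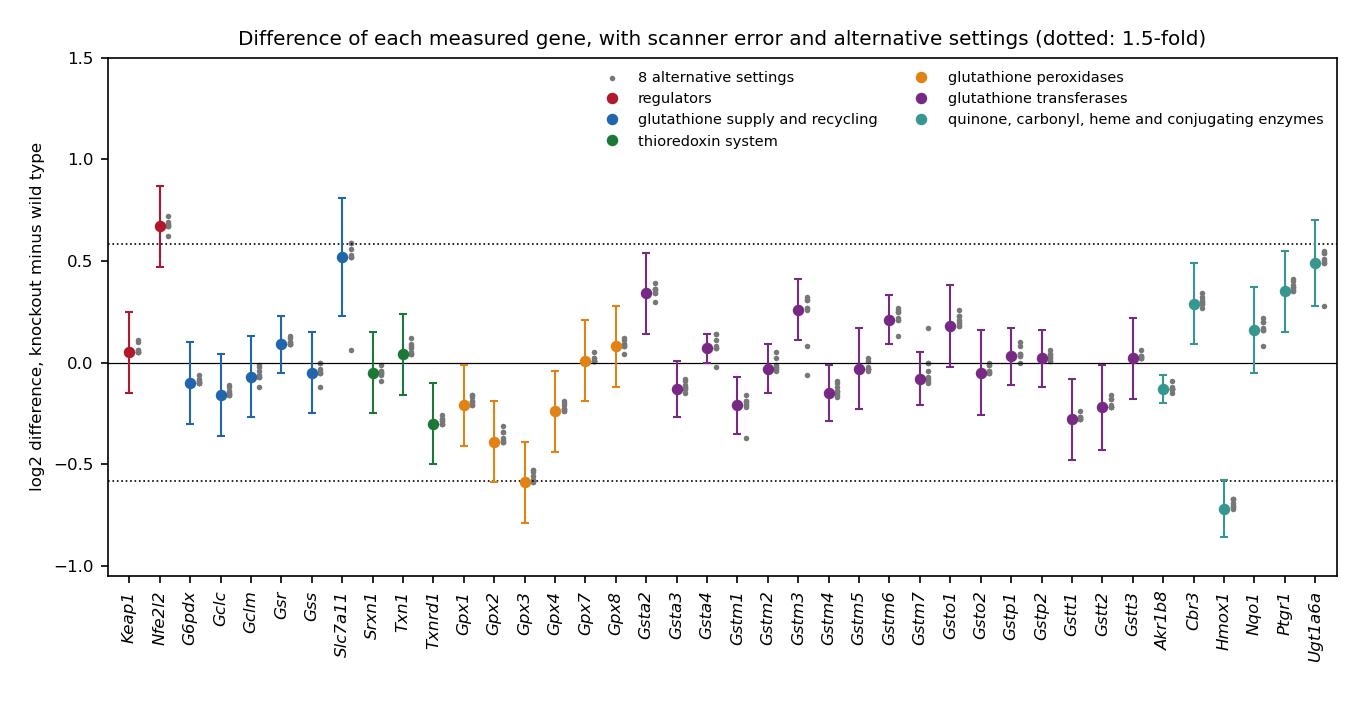
Log2 difference of each measured member, knockout minus wild type, coloured by role, with bars for the error of the scanner software's model and grey dots for 8 alternative settings; dotted lines mark 1.5-fold. Only Nfe2l2, Hmox1 and Gpx3 reach the lines in the main setting, and grey dots lie far from the main value for Slc7a11 (0.06 after normexp correction), Ugt1a6a (0.28 after normexp correction) and Gstm3 (−0.06 with its brightest probe), among others.

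The glutathione S-transferases, which attach glutathione to electrophiles, differed little. Of 18 members 17 were measured, all within 1.5-fold, and 16 lay within 0.3 of 0, taken over all measured probes of each. The median was −0.03. The highest was Gsta2, an alpha-class transferase and NRF2 target, at 4.98 in controls and 6.32 in knockout skin (0.34, error 0.20). The lowest was Gstt1, of the theta class, at 0.901 and 0.740 (−0.28).

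Gsto1, the omega-class enzyme that also acts as a thiol reductase, read 21.3 and 24.2 (0.18). Gsta3 had 2 probes, at −0.15 and −0.12. Gstp1 and Gstp2, the pi-class pair whose probes are shown above, were at 0.03 and 0.02, and their 4 probes lay between −0.00 and 0.07. A Gstp1 probe carried the accession of Gstp2 as well, so the pair cannot be fully separated. A Gstp2 probe lay where 14.9% of the surrounding spots were 2-fold apart, and with spots in such surroundings left out the gene was at 0.02.

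The mu-class genes lie side by side on chromosome 3, with probes spanning chr3:107701101-107843861 (mm9). In the order of the coordinates, the log2 differences were −0.03 for Gstm5, −0.08 for Gstm7, 0.21 for Gstm6, 0.26 for Gstm3, −0.03 for Gstm2, −0.21 for Gstm1 and −0.15 for Gstm4. Taken over all measured probes of each gene, all 7 lay within 0.3 of 0, on both sides of it. With only its probe in the cluster, Gstm3 was at 0.58. The theta-class genes Gstt3, Gstt1 and Gstt2, in order along chr10:75236966-75295265, were at 0.02, −0.28 and −0.22.

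The array design places 3 mu-class probes outside this cluster, on other chromosomes, although they bear the accessions of Gstm1, Gstm2 and Gstm3. For Gstm1, the probe placed at chr5:117082490-117082549 read 3.04 and 2.36 (−0.37), and the probe in the cluster 0.759 and 0.736 (−0.04). Without the first, the Gstm1 difference was −0.04. For Gstm3, the probe in the cluster was dim, at 0.0201 and 0.0300 (0.58, error 0.23), and the probe placed at chr10:34618363-34618422 read 0.437 and 0.420 (−0.06). Without the latter, Gstm3 was at 0.58. The 3 Gstm2 probes were alike, at 0.05, −0.09 and −0.05. The Gstm1 and Gstm3 values thus turn on which probe is used, and whether these probes detect transcripts from the other places was not tested.

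**Figure D4:**
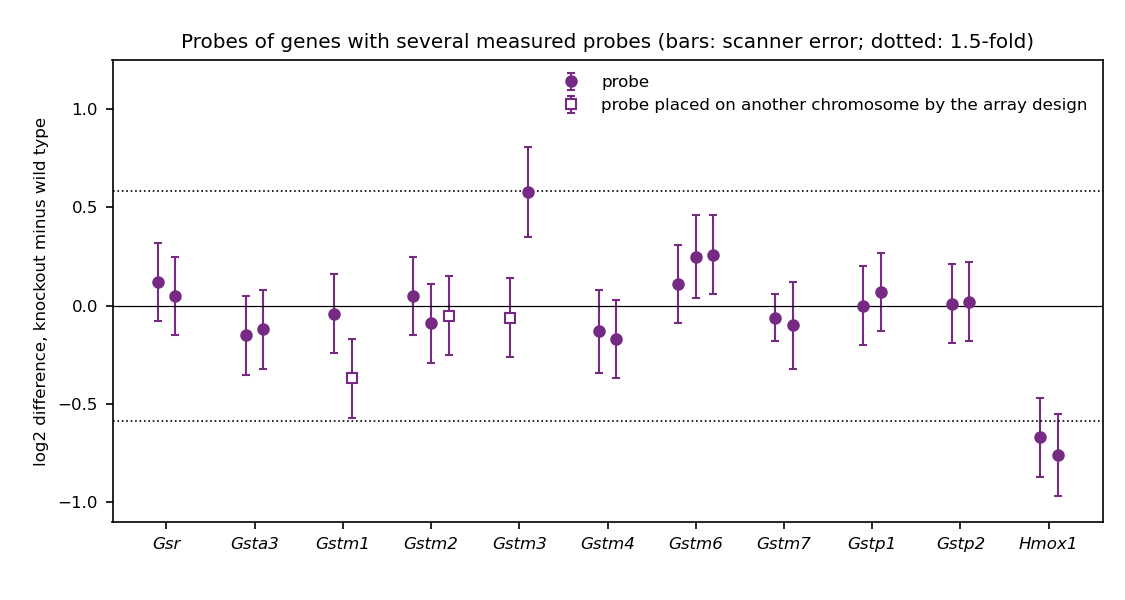
Log2 difference of each measured probe for the 11 members with several, with bars for the error of the scanner software's model; open squares are probes that the array design places on another chromosome, and dotted lines mark 1.5-fold. Both Hmox1 probes are low together, and the Gstm3 probes are the pair furthest apart (0.58 and −0.06).

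Promoter sequence was examined for the core of the antioxidant response element, TGACNNNGC, on both strands of the 300 bases from 250 before to 50 after each start in RefSeq (GRCm38.p6). Of 38 members with a promoter in the table, 8 held a match (21.1%), against 14.0% of 27025 gene symbols. The members not matched to the table were Gclc, Gsr, Gsta4, Gstt2 and Hmox1. The motif can overlap TGACTCA, the AP-1 element, and none of the member matches did. The matches nearest the results are shown with the motif in capitals, each as 30 bases on the strand of the gene.
Nfe2l2: tcagcccaccTGACTCCGCcatgccccgga
Txnrd1: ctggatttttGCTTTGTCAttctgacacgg
Gclm: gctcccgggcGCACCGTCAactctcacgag
Gsta3: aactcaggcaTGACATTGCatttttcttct
These lie at chr2:75704884-75704913 (minus strand), chr10:82859104-82859133 (plus), chr3:122245413-122245442 (plus) and chr1:21240454-21240483 (plus). In Txnrd1, in 1 of several starts, and in Gclm the motif is on the opposite strand. The log2 differences of these genes were 0.67, −0.30, −0.07 and −0.13. The 8 members with a match had a median of −0.08 and a range from −0.30 to 0.67, and the 27 measured members without one a median of 0.02 and a range from −0.59 to 0.52. A match is a run of letters, not a binding site, and a missing match says nothing beyond this window.

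Further genes of thiol and antioxidant metabolism were taken from a list of 84 names, of which 78 were measured. Of these, 28 were above 0 and 50 below, with a median of −0.07, and 5.13% were at least 1.5-fold apart. Of all measured names, 9797 were above 0 and 12943 below, with a median of −0.04, and 8.42% were at least 1.5-fold apart. The lowest was Chac1, a gamma-glutamylcyclotransferase that degrades glutathione and is induced by the integrated stress response, at 0.671 for wild type and 0.354 for knockout (1.90-fold lower, −0.92). The highest was its paralog Chac2, at 0.292 and 0.454 (1.56-fold higher, 0.64). The pair of glutathione-degrading enzymes thus lay at opposite ends of the list.

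The other 2 names past 1.5-fold, given because they are so few, were Txnip, the thioredoxin inhibitor, at −0.81 (5.97 and 3.40), and Ggt1, which cleaves extracellular glutathione, at −0.68 (0.0708 and 0.0443). Antioxidant enzymes that handle superoxide and peroxide were close to even, at −0.08 for Sod1, −0.18 for Sod2, −0.18 for Cat, −0.05 for Prdx1 and −0.02 for Prdx6. Sod3, the extracellular dismutase, was at −0.50. The ferritin genes Fth1 and Ftl1, which store the iron released by heme oxygenase, were at −0.12 and −0.18.

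The targeted gene bore out the labels on these arrays, with Sdr9c7 at 0.324 on the wild type array and 0.0479 on that of the knockout (6.78-fold lower). Of the probes, 74.9% and 76.8% were well above background on the wild type and knockout array. The labels call the tissue skin, and markers of keratinocytes, fibroblasts, muscle and fat were detected, with 6 of 7 measured in the granular keratinocyte list, which had no value for Flg. Markers of some cell types moved with genotype. The summed signal of 18 skeletal muscle markers was 337 in controls and 202 in knockout skin, with 18 of 18 lower, and that of 12 white adipocyte markers 155 and 111, with 11 of 12 lower. Brown adipocyte markers were mixed (3 higher and 4 lower), with sums of 7.40 and 5.06.

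Of the 8 erythroid markers, 6 were measured and all 6 were higher, with sums of 72.2 and 95.2. Macrophages express Hmox1, and of their 6 marker names 5 were measured, 3 higher and 2 lower, with sums of 5.69 and 5.88. The name without a value, Emr1, is an older symbol of Adgre1, which was measured. The sums for keratinocytes were 143 and 162 in the basal, 309 and 306 in the suprabasal and 150 and 141 in the granular list. Those of fibroblasts were 319 and 311, of mast cells 56.7 and 63.2, of melanocytes 24.6 and 21.8, and of endothelium 3.84 and 3.32. By single markers, mast cells had 4 of 4 higher, melanocytes and endothelium 4 of 4 lower each, and fibroblasts 2 higher and 4 lower. In the suprabasal list 6 of 7 markers lay within 0.3 of 0, and Krt2 was at −0.69. Hepatocyte markers summed to 0.104 and 0.158, with Apoa1 and Ttr not measured, and most of that gap was Ahsg (0.0164 and 0.0642), while Alb was at 0.09 and Serpina1a at 0.10. In bulk RNA, fewer cells of a type and less RNA per cell cannot be told apart, and the part of these shifts in the lower Gpx3 and Hmox1 or the higher Nfe2l2 was not tested.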

How the data were processed

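Expression was measured on 1-colour Agilent arrays, 1 per genotype, from 200 ng of RNA labelled with Cy3. Per the file headers, the intensity of 44397 spots was taken by the authors in Feature Extraction (Agilent, version 11.5.1.1), with background correction off and spatial and multiplicative detrending on. The deposited series matrix holds a ratio, the processed intensity over 1 constant per array (1906 and 2080; column medians 0.0855 and 0.0840), on a linear scale with genes not centred.

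Control spots and 192 outlier spots were left out, log2 intensities of spots of a probe averaged, and the 75th percentile over 39417 probes subtracted. A gene's value is the mean of its probes that were well above background on each array (0 spots were saturated). With 1 array per group there is no test and precision is limited by the number of arrays. Values were computed with Python 3.11.15 and limma 3.58.1. The steps were checked on simulated data with less spot noise than the scanner error. That check covers the computation, not how the 1.5-fold differences hold at the noise of these arrays. Members and lists were chosen with earlier results of these data known. Members named with values were those at least 1.5-fold apart, the 4 highest and 4 lowest, the 8 brightest, the regulators and those whose probes differed by over 0.5. Others, and some genes of the wider list, are named for their role after their values were seen. Alternatives were normexp (offset 50), median, quantile and loess scaling, no filter on dim probes, the brightest probe, spots in damaged surroundings left out (over 10% of spots within 8 rows and columns 2-fold apart) and the series matrix. The choice of probes by their place was added after the data were seen.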

Additional observations from a re-analysis of the deposited data

How the results depend on the processing

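No paired analysis was possible because each genotype is 1 array, and no array could be left out. Under the 8 alternatives the number of members at least 1.5-fold apart was 2 to 4, with Hmox1 and Nfe2l2 past the threshold under each of them. The share of all names past it changed more. It was lowest with normexp, at 3.47%, beside 2 of 40 members. It was highest without a filter on dim probes, at 14.6%, beside 4 of 43 members. The number at least 2-fold apart was 0, except for 1 without a filter on dim probes, where Gstt4, not well above background on either array, was counted. The median difference moved from −0.03 to 0.01 with median scaling, which moved that of all genes from −0.04 to 0.01. Of 136 values of the 17 named members, 132 stayed within the scanner error of the main value. Part of these were fixed in advance. For a measured member with 1 probe, the dim filter and the brightest probe could not change the value. The series matrix holds the same intensity over a constant, so it could move values little. Among the named members, only 1 probe of Gstp2 lay in damaged surroundings. Leaving out such spots could therefore move the other named members only through the scaling of the arrays. Gpx3 fell under 1.5-fold in 6 of the 8 alternatives, and the rest could not change its value. Among the 6 were the series matrix and the removal of damaged surroundings, which changed only the scaling for Gpx3. Slc7a11 passed 1.5-fold in 2 (quantile and loess). Of the 40 members, 33 kept their sign under all alternatives. Those that did not lay between −0.08 and 0.26, the last being Gstm3, at −0.06 with its brightest probe. Dim members are limited by signal over background, with Slc7a11 at 0.06 after normexp correction.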
